A study of Homo sapiens with 6 samples.

Results

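The interstitial matrix genes described here are 10 named genes of the deposited gene table: LUM, DCN, BGN, VCAN, FN1, TNC, THBS1, FBLN1, COL5A1 and COL6A1. They were taken by symbol from 58735 genes, and each symbol matched 1 row. RNA was sequenced from TPC1, an established cell line of papillary thyroid cancer, in 2 groups of 3 libraries. One group had been transfected with si-circ_0000839, an siRNA against the circular RNA circ_0000839, and the other with negative-control siRNA (NC), each for 60 h. Both groups were the same line in the same medium, so a value here is that of 1 cell line. The depletion of the circular RNA itself could not be checked, because the table gives levels per gene and none for a circular RNA.

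The interstitial matrix is the meshwork between cells, and cells assemble it from secreted proteins. Fibronectin and fibrillar collagens form its fibres, with collagen V starting fibrils and collagen VI forming beaded filaments beside them. Small leucine-rich proteoglycans such as lumican, decorin and biglycan bind collagen fibrils, versican binds hyaluronan, and tenascin-C and thrombospondin-1 are matricellular proteins that tune how cells attach. In thyroid tissue much of this matrix is made by fibroblasts, and fibronectin is a known product of papillary thyroid carcinoma cells.

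TPC1 cells held the RNA of these matrix genes at very unequal levels, and protein was not measured. FN1 stood far above all other members at 853 ± 45.8 FPKM after si-circ_0000839 and 841 ± 26.7 FPKM in NC (SD, n = 3 per group), and DCN had at most 1 read in any library. FPKM are fragments per kilobase of gene length and per 1000000 of a library total, which no source used here defines. Levels can be compared between genes only as far as the gene lengths of the table suit the transcripts made. After si-circ_0000839 COL5A1, TNC and THBS1 lay above every NC library, at 1.43, 1.2 and 1.19 times the NC mean, and LUM lay below every NC library at 0.703 times. The limma test over all genes (two-sided, on log2(FPKM + 1), adjusted p under 0.05) called 0 of the 9 tested members, against 0.384% of all 10674 tested genes. At an unadjusted p under 0.05 there were 5 of 9 members, against 12.6% of all tested genes, and limma's voom on the recovered reads called 2, COL5A1 and LUM, against 1.11%. Groups did not overlap for 4 of the 9 members, 3 upward and 1 downward, against 18.1% of all tested genes.

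The libraries held 18399558 to 19334633 reads, recovered from the table as whole numbers. Members together took 1.501% to 1.68% of reads, and FN1 alone 1.38% to 1.54%. In all, 41 genes were called, 14 higher and 27 lower; after rescaling to TPM the split was 32 and 23, after quantile normalization 29 and 34, and with a trend on GC content and length removed 111 and 109. The labels do not say whether libraries of 1 group were separate cultures; the p-values therefore reflect library-to-library spread, which may be technical. A pair of libraries stood apart in GC content: in the fifth of tested genes richest in GC the mean log2 deviation was 0.11 in si-circ_0000839 replicate 1 and 0.08 in NC replicate 2. In the other 4 libraries it was between -0.07 and -0.0095.

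The thyroid identity of the line was partly retained. PAX8, a thyroid lineage factor, averaged 96.3 FPKM after si-circ_0000839 and 95.8 FPKM in NC, and FOXE1 11.6 and 10.9 FPKM, while NKX2-1, TSHR and SLC5A5 had 0 reads. Markers of other matrix-making cells were low. Of 10 fibroblast markers 0 reached a mean of 1 FPKM, DPT had 0 reads, and their summed level was 1.10 to 1.65 FPKM after si-circ_0000839 and 0.995 to 1.23 FPKM in NC. Of 6 smooth muscle and pericyte markers 2 reached a mean of 1 FPKM. The 6 summed to 5.13 to 5.33 FPKM after si-circ_0000839 and 4.69 to 5.72 FPKM in NC, with MYOCD at 0. The 7 endothelial markers summed to 0.1002 to 0.193 FPKM after si-circ_0000839 and 0.151 to 0.180 FPKM in NC, with EMCN at 0. The 8 leukocyte markers summed to 0.364 to 0.472 FPKM after si-circ_0000839 and 0.405 to 0.872 FPKM in NC, with PTPRC, CD3E and MS4A1 at 0. In bulk RNA such as this, fewer cells of the line expressing a gene and less of its RNA per cell cannot be told apart.

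The order of mean levels was the same in the groups. From high to low it ran FN1, TNC, THBS1, LUM, COL6A1, VCAN, FBLN1, COL5A1, BGN and DCN in each group. FN1 was 12.2 times TNC after si-circ_0000839 and 14.4 times in NC, and by mean level it ranked 39 among all genes of the table. COL6A1 and VCAN overlapped in each group. LUM overlapped COL6A1 after si-circ_0000839, where it was 1.22 times COL6A1, but not in NC, where it was 2.01 times. All other neighbours in the order were separated in every library.

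**Figure D1:**
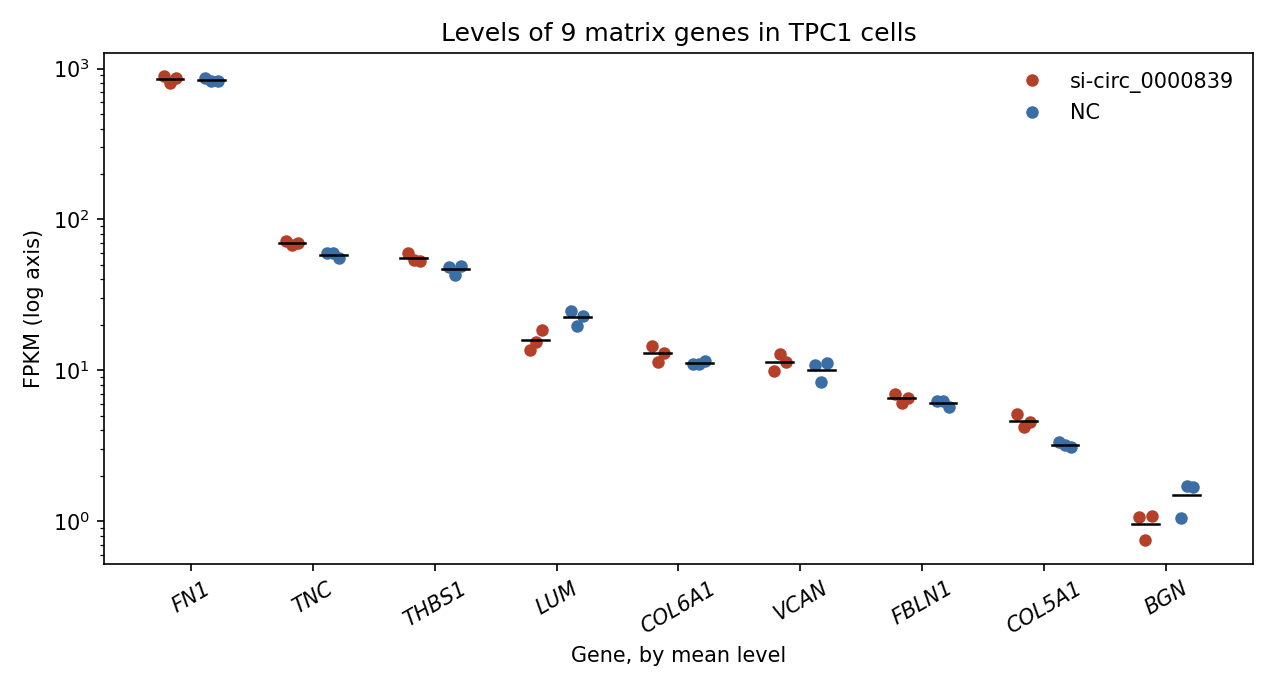
FPKM (log axis) of the 9 members with a mean of at least 1 FPKM, in the 3 si-circ_0000839 and 3 NC libraries, with 1 point per library and a line at the group mean. FN1 lies between 802 and 889 FPKM in all 6 libraries, and TNC, THBS1 and COL5A1 (higher) and LUM (lower) are the members whose groups do not overlap.

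Promoter sequences are shown for the member with the highest level, FN1, and for the 3 members whose groups were separated upward, TNC, THBS1 and COL5A1. They come from RefSeq (GRCh38.p14), run from 250 bases before to 50 after the annotated start, and read 5′ to 3′ on the strand of the gene. Of the 10 members 7 had a promoter in the table, and LUM, DCN and COL6A1 had none to show. COL5A1 had 2 windows, of which the first listed is shown. The windows are FN1 chr2:215436019-215436318 (minus strand), TNC chr9:115118108-115118407 (minus), THBS1 chr15:39580829-39581128 (plus) and COL5A1 chr9:134641553-134641852 (plus). Capitals mark matches, on either strand, to the letters TATAA (known for the TATA-binding protein), CCAAT (known for NF-Y), GGGCGG (known for SP1), TGANTCA (known for AP-1) and GGAATG (known for TEAD factors). In THBS1 a GGGCGG match and the CCAAT match touch, so they run together as 1 block of capitals.
FN1: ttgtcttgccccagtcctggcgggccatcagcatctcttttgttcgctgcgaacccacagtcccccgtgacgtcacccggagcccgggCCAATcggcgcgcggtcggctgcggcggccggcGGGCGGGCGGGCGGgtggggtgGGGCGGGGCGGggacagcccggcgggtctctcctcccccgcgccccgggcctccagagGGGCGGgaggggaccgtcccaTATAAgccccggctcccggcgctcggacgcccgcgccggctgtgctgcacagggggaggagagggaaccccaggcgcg
TNC: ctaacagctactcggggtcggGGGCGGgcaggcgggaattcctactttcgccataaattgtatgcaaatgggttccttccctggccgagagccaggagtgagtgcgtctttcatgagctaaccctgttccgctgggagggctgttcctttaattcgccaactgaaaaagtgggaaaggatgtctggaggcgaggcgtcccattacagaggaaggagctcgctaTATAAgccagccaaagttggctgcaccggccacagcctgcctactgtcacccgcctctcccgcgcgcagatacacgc
THBS1: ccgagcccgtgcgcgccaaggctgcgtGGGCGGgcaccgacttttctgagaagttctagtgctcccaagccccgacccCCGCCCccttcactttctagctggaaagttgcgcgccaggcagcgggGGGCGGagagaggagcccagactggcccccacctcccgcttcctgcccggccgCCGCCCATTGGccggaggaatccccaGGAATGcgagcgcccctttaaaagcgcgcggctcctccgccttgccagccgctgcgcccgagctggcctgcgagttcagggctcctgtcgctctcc
COL5A1: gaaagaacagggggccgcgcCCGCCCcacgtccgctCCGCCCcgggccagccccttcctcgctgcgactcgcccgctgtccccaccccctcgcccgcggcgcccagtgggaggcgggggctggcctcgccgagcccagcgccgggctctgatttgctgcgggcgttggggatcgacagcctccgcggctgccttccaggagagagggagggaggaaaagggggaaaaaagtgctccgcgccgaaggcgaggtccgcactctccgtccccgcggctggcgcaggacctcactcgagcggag

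The 4 windows differed in these letters. TATAA was found in FN1 at 28 and in TNC at 27 bases before the start, and not in THBS1 or COL5A1, against 20.5% of 34796 promoters of the same length. All 4 windows held GGGCGG, with 6 matches in FN1, 1 in TNC, 4 in THBS1 and 2 in COL5A1, against 44.9% of all promoters with at least 1. The member promoters not shown held it too, with 5 matches in BGN, 1 in VCAN and 1 in FBLN1. Of these, VCAN also held TATAA, at 26 bases before the start. CCAAT was found in FN1 and THBS1, against 34.6% of all promoters, and GGAATG in THBS1 alone of the 4, against 14.0%. TGANTCA, held by 7.73% of all promoters, was in none of the 4. A match is a description of these letters and not of a binding site. GC content was 76.7% in FN1, 57.3% in TNC, 70.0% in THBS1 and 74.0% in COL5A1, against a median of 58.7% over all promoters.

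FN1 encodes fibronectin, the adhesive glycoprotein on which cells assemble the first fibres of their matrix. It lies on chromosome 2 from 215360440 to 215436172, minus strand, in the coordinates of the table, which are those of GENCODE release 29 on GRCh38. After si-circ_0000839 it stood at 889, 802 and 869 FPKM, and in NC at 872, 830 and 822 FPKM. The groups overlapped, and the lowest library of all 6 was si-circ_0000839 replicate 2. With 261194 to 292858 reads per library, counting error was small beside the spread between libraries. The log2 change was 0.020 (SE 0.08, 95% interval -0.15 to 0.19, adjusted p = 0.947), with an interval on both sides of 0.

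TNC encodes tenascin-C, a hexameric glycoprotein that modulates adhesion to fibronectin. It lies on chromosome 9 from 115019578 to 115118257, minus strand. Its level was 72.3, 67.5 and 70.0 FPKM after si-circ_0000839, against 59.6, 60.2 and 55.7 FPKM in NC. Every si-circ_0000839 library lay above every NC library. The means were 70.0 ± 2.41 and 58.5 ± 2.46 FPKM (SD, n = 3 per group), a log2 change of 0.25 (SE 0.07, 95% interval 0.11 to 0.40) with adjusted p = 0.168 in limma. With a trend on GC content and length removed from each library the adjusted p was 0.0490, and that fit called 2.06% of all genes.

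THBS1 encodes thrombospondin-1, a matricellular protein that activates latent TGF-beta and binds CD47 and CD36. It lies on chromosome 15 from 39581079 to 39599466, plus strand. It stood at 60.1, 54.0 and 53.4 FPKM after si-circ_0000839, against 48.7, 43.0 and 49.1 FPKM in NC. The groups did not overlap, with si-circ_0000839 replicate 1 the highest and NC replicate 2 the lowest of all. These are the libraries that stood apart in GC content, and without them the log2 change was 0.13, against 0.25 with all 6 (SE 0.08, adjusted p = 0.241). Genes that overlap THBS1 were low, with AC037198.1 inside it on the same strand at 0.358 to 1.04 FPKM.

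FBLN1 encodes fibulin-1, which links fibronectin, elastic fibres and basement membranes. On chromosome 22 from 45502238 to 45601135, plus strand, it stood at 6.93, 6.06 and 6.58 FPKM after si-circ_0000839, against 6.23, 6.29 and 5.70 FPKM in NC. The groups overlapped. Its log2 change was 0.09 (SE 0.08, 95% interval -0.08 to 0.26, adjusted p = 0.689). It was 0.05 without si-circ_0000839 replicate 1 or without NC replicate 3, 0.13 without si-circ_0000839 replicate 2, and 0.03 with a trend on GC content and length removed.

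COL5A1 encodes the alpha-1 chain of collagen V, the fibrillar collagen that nucleates fibrils and limits their width. It lies on chromosome 9 from 134641774 to 134844843, plus strand. Its level was 5.14, 4.20 and 4.53 FPKM after si-circ_0000839, on 924 to 1054 reads, against 3.37, 3.21 and 3.10 FPKM in NC, on 652 to 731 reads. All 3 si-circ_0000839 libraries lay above all 3 NC libraries. The means were 4.62 ± 0.476 and 3.22 ± 0.136 FPKM (SD, n = 3 per group), 1.43-fold. Of the members it had the smallest p, with a log2 change of 0.41 (SE 0.08, 95% interval 0.22 to 0.60) and adjusted p = 0.0859 in limma. It passed with voom on the recovered reads (adjusted p = 0.00994) and with protein-coding genes alone (adjusted p = 0.0222), which called 1.11% and 1.29% of their genes.

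The chain partner COL5A2 had a log2 change of similar size on the log2(FPKM + 1) scale, which understates changes of low genes. Its fold of mean FPKM was 1.55, against 1.43 for COL5A1. It averaged 2.04 ± 0.0821 FPKM after si-circ_0000839 and 1.31 ± 0.136 FPKM in NC, a log2 change of 0.39 (SE 0.09, adjusted p = 0.0979). COL5A3, which encodes a further chain, had 1 read in NC replicate 3 and 0 elsewhere. The ratio of COL5A1 to COL5A2 was 2.42, 2.14 and 2.23 after si-circ_0000839, against 2.30, 2.52 and 2.57 in NC. These ratios overlapped (exact permutation test, two-sided p = 0.2, 0.3 after adjustment over 3 ratios, where the smallest possible p is 0.1).

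RNA for collagens I and III was low beside that for collagen V. COL1A1, chosen after its values were seen, stood at 0.622, 0.502 and 0.570 FPKM after si-circ_0000839, against 0.367, 0.314 and 0.428 FPKM in NC. Its groups did not overlap, on 56 to 112 reads, and it stayed under the 1 FPKM needed for the test. COL1A2 had 1 read in 1 NC library and 0 elsewhere, and COL3A1 had 1 to 3 reads per library. Of 11 fibrillar collagen genes 3 were tested, COL5A1, COL5A2 and COL27A1. In all 3 the groups were separated upward, against 10.6% of all tested genes, 0 passed, and their median log2 change was 0.39, against 0.0057 over all tested genes.

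COL6A1 encodes the alpha-1 chain of collagen VI, which assembles with alpha-2 and a further chain into filaments near cells. On chromosome 21 from 45981737 to 46005050, plus strand, it stood at 14.5, 11.3 and 13.0 FPKM after si-circ_0000839, against 11.01, 10.96 and 11.5 FPKM in NC. The lowest si-circ_0000839 library lay below the highest NC library. Its log2 change was 0.19 (SE 0.09, 95% interval -0.0012 to 0.39, adjusted p = 0.397), and 0.10 without the 2 libraries that stood apart in GC content. COL6A2 followed COL6A1 closely, at 28.3 ± 3.24 FPKM after si-circ_0000839 and 24.3 ± 1.35 FPKM in NC (adjusted p = 0.375). The ratio of COL6A1 to COL6A2 averaged 0.458 after si-circ_0000839 and 0.460 in NC (exact permutation test, two-sided p = 0.9). COL6A3, which encodes the long alpha-3 chain, was far lower, at 0.362 and 0.392 FPKM.

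LUM encodes lumican, a keratan sulfate proteoglycan that spaces collagen fibrils. It lies on chromosome 12 from 91102629 to 91111831, minus strand. Its level was 13.6, 15.4 and 18.4 FPKM after si-circ_0000839, on 751 to 1017 reads, against 24.7, 19.7 and 23.0 FPKM in NC, on 1077 to 1440 reads. Every si-circ_0000839 library lay below every NC library, with si-circ_0000839 replicate 3 and NC replicate 2 closest to each other. The log2 change was -0.49 (SE 0.11, 95% interval -0.73 to -0.24, adjusted p = 0.108), the most negative of the 9 on the log2(FPKM + 1) scale. By fold of mean FPKM BGN was lower, at 0.652 times the NC mean on 36 to 79 reads, against 0.703 for LUM. LUM passed with voom (adjusted p = 0.0320), with protein-coding genes alone (adjusted p = 0.0178) and with a minimum of 5 FPKM (adjusted p = 0.0372), the last of which called 1.12% of its genes. With the GC and length trend removed its log2 change was -0.37 (adjusted p = 0.0643).

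DCN encodes decorin, the chondroitin or dermatan sulfate proteoglycan that is the usual partner of lumican in connective tissue. It is the neighbour of LUM, 28652 bases away on the same strand of chromosome 12, from 91140484 to 91183123. It had 1, 0 and 1 read after si-circ_0000839, and 0, 1 and 1 read in NC. Each count lies under a floor of 3 reads, which stands for 0.0119 to 0.0128 FPKM in a library and covers counting error only. KERA and EPYC, which lie on the other side of LUM in the same cluster and were chosen after their values were seen, had 0 reads in all 6 libraries. In this cluster LUM was thus the only one of these 4 genes above the floor in these libraries.

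BGN encodes biglycan, the proteoglycan closest to decorin in sequence, and lies on the X chromosome from 153494939 to 153509554, plus strand. It stood at 1.07, 0.746 and 1.09 FPKM after si-circ_0000839, on 36 to 49 reads, against 1.05, 1.70 and 1.69 FPKM in NC, on 50 to 79 reads. NC replicate 1 fell among the si-circ_0000839 libraries, so the groups overlapped. The log2 change was -0.33 (SE 0.13, 95% interval -0.61 to -0.05, adjusted p = 0.319). HAUS7 lies across BGN on the other strand at 0.165 to 0.429 FPKM, and without a stated strand setting their shared reads could belong to either gene.

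VCAN encodes versican, the large chondroitin sulfate proteoglycan that binds hyaluronan. On chromosome 5 from 83471465 to 83582303, plus strand, it stood at 9.98, 12.8 and 11.4 FPKM after si-circ_0000839, against 10.8, 8.36 and 11.2 FPKM in NC. The groups overlapped, and NC replicate 2 was the lowest library. Its log2 change was 0.16 (SE 0.11, 95% interval -0.09 to 0.41, adjusted p = 0.616), and 0.04 without NC replicate 2.

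**Figure D2:**
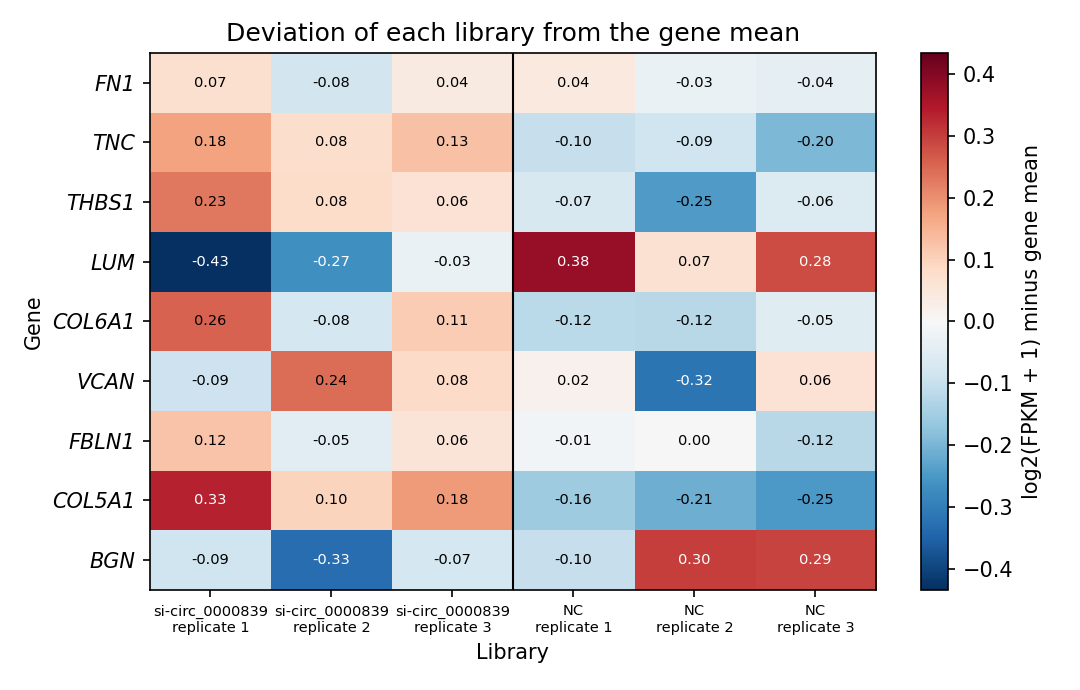
Deviation of each library from the mean of the gene over the 6 libraries, on the log2(FPKM + 1) scale, for the 9 tested members, with the 3 si-circ_0000839 libraries left of the 3 NC libraries. LUM ranges from -0.43 in si-circ_0000839 replicate 1 to 0.38 in NC replicate 1, while FN1 stays between -0.08 and 0.07.

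The members did not move as 1 block. Of the 9 tested members 7 had a log2 change above 0, where 51.8% of all tested genes did, and their median was 0.16, against 0.0057 over all tested genes. Among the members, the tested small leucine-rich proteoglycans LUM and BGN had a change below 0. The summed level of the 10 members was 1073, 974 and 1048 FPKM after si-circ_0000839, against 1037, 983.2 and 983.1 FPKM in NC, and FN1 made up 82.3% to 84.4% of it. Without FN1 the sum was 184, 172 and 178 FPKM after si-circ_0000839, against 166, 153 and 161 FPKM in NC. That sum was thus higher in every si-circ_0000839 library, and most of it was TNC and THBS1.

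**Figure D3:**
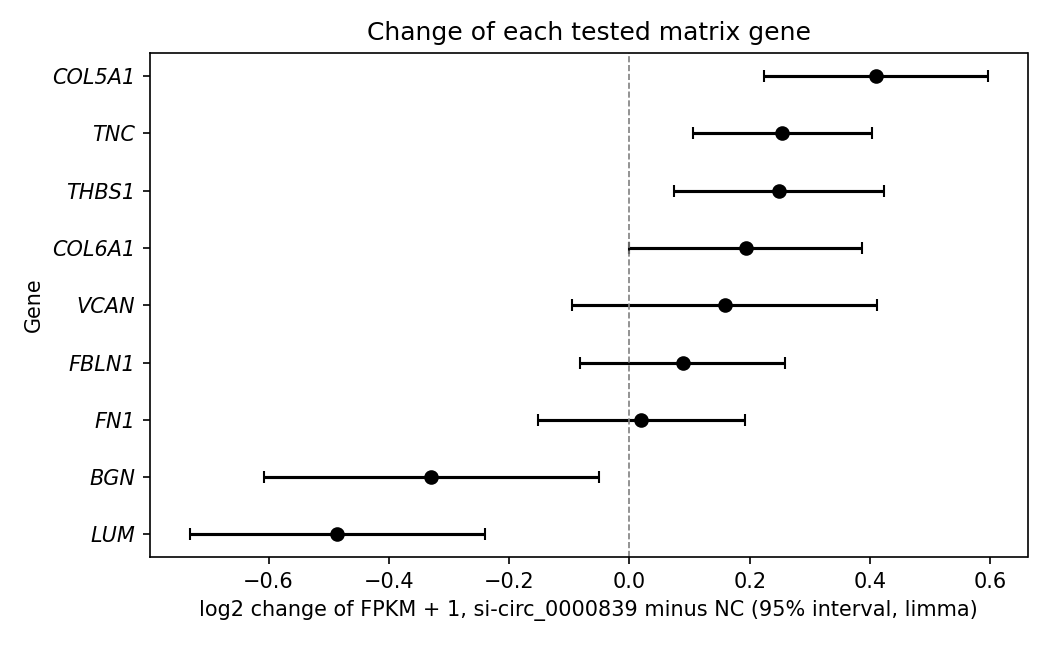
Change of log2(FPKM + 1), si-circ_0000839 minus NC, for the 9 tested members with its 95% interval from limma. The intervals of COL5A1, TNC and THBS1 lie above 0 and those of BGN and LUM below 0, and after adjustment over all 10674 tested genes 0 of the 9 passed.

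Patterns over the 6 libraries were compared with 9665 other protein-coding genes by the mean absolute difference of centred values in SD units. Closest to FN1 were VPS33A, ZDHHC1 and CRTC1, at 0.137, 0.138 and 0.200, where the median gene was at 1.05. Closest to COL5A1 were STK40, ACSL5 and ZFYVE26, at 0.0931, 0.0965 and 0.103, where the median gene was at 1.01. With 6 libraries and so many genes, these are a description only.

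Genes of the same families and of matrix handling were read from lists of pathway members. Of the genes in these lists 2 passed, TGFBI and ITGA5, each upward, where 0.131% of all tested genes were called higher and 0.253% lower. Of 24 adhesive and matricellular glycoprotein genes 12 were tested, 1 rose and 11 did not pass, with a median log2 change of 0.18. The 1 that rose was TGFBI, a secreted protein that binds collagen and integrins, at 102, 90.2 and 91.6 FPKM after si-circ_0000839, against 67.2, 71.9 and 66.2 FPKM in NC (log2 change 0.46, SE 0.07, adjusted p = 0.0257). It missed the threshold without si-circ_0000839 replicate 1 or 3 (adjusted p = 0.0777 and 0.0884) and without NC replicate 1 or 3 (0.110 and 0.125). FN1, TNC and THBS1 belong to this list, in which the groups were separated upward for 6 of the 12 tested genes, TNC and THBS1 among them, against 10.6% of all tested genes.

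Receptors of these proteins gave 1 call. Of 25 matrix receptor genes 15 were tested, 1 rose and 14 did not pass, with a median log2 change of 0.0084. ITGA5, the alpha chain of the classical fibronectin receptor, rose to 80.1, 70.2 and 78.9 FPKM after si-circ_0000839, against 51.7, 57.6 and 50.5 FPKM in NC (log2 change 0.51, SE 0.08, adjusted p = 0.0244). Without si-circ_0000839 replicate 1 or 3 its adjusted p was 0.0842 and 0.0992, and without NC replicate 1 or 3 it was 0.0897 and 0.108. Its ratio to FN1 was 0.0901, 0.0876 and 0.0907 after si-circ_0000839, against 0.0593, 0.0694 and 0.0614 in NC. Those ratios did not overlap (two-sided exact permutation p = 0.1, which is the lowest 3 against 3 can give, and 0.3 after adjustment over 3 ratios). The ratio is built from the same ITGA5 values, so it is not separate evidence.

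The other receptor chains differed by less than the test could call. ITGB1, the beta chain that pairs with ITGA5, averaged 155 ± 14.9 FPKM after si-circ_0000839 and 154 ± 12.4 FPKM in NC. ITGAV, a chain of vitronectin and fibronectin receptors, averaged 11.5 and 11.9 FPKM. CD47, a receptor of thrombospondin-1, averaged 7.57 and 7.19 FPKM, CD44, the hyaluronan receptor, 59.9 and 61.8 FPKM with groups that did not overlap, and the syndecan gene SDC4 183 and 195 FPKM. Adjusted p ranged from 0.674 to 0.980 for these 5 genes.

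Among the other structural lists no gene passed. Of 16 small leucine-rich proteoglycan genes 4 were tested, LUM, BGN, TSKU and NYX, with a median log2 change of -0.20. LUM and BGN are members described above, and TSKU and NYX had log2 changes of 0.06 and -0.08. TSKU, which encodes tsukushi, averaged 12.5 ± 0.687 FPKM after si-circ_0000839 and 11.9 ± 0.470 FPKM in NC (adjusted p = 0.776). Of 19 fibulin and elastic fibre genes 10 were tested, with groups separated upward in 5 and downward in 1, against 10.6% and 7.55% of all tested genes. MFAP2, a microfibril protein, had the smallest p among them, at 1.61, 1.19 and 1.62 FPKM after si-circ_0000839, against 0.760, 0.887 and 0.865 FPKM in NC (adjusted p = 0.116). Of 14 genes of collagen VI and other non-fibrillar collagens 7 were tested, with a median of 0.13, and COL8A1 averaged 9.86 and 11.4 FPKM (adjusted p = 0.285).

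Lists of synthesis and turnover likewise held no called gene. Of 24 genes for glycosaminoglycan chains, the sugar polymers carried by versican and biglycan, 20 were tested, with 14 above 0 and a median of 0.08. Over all tested genes 51.8% were above 0. Groups were separated upward in 5 of the 20 and downward in 1, against 10.6% and 7.55% of all tested genes. EXTL3, a heparan sulfate enzyme, had the smallest p there, at 17.3 ± 0.901 FPKM after si-circ_0000839 and 14.1 ± 1.303 FPKM in NC (adjusted p = 0.204). Of 30 genes for collagen modification and crosslinking 24 were tested, with 19 above 0 and groups separated upward in 7 and downward in 1. The 1 separated downward was TGM2, the crosslinking transglutaminase, at 132 ± 15.0 FPKM after si-circ_0000839 and 171 ± 5.15 FPKM in NC (adjusted p = 0.113). Of 14 hyaluronan and large proteoglycan genes 5 were tested, with 3 above 0, a median of 0.07 and groups separated downward in 2. HMMR, a hyaluronan-binding protein of the mitotic spindle, averaged 2.68 and 3.64 FPKM (adjusted p = 0.218). Of 11 genes for proteases that cleave versican and related molecules 4 were tested, all above 0, with groups separated upward in 2. ADAMTS1 averaged 10.2 and 8.38 FPKM (adjusted p = 0.220).

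**Figure D4:**
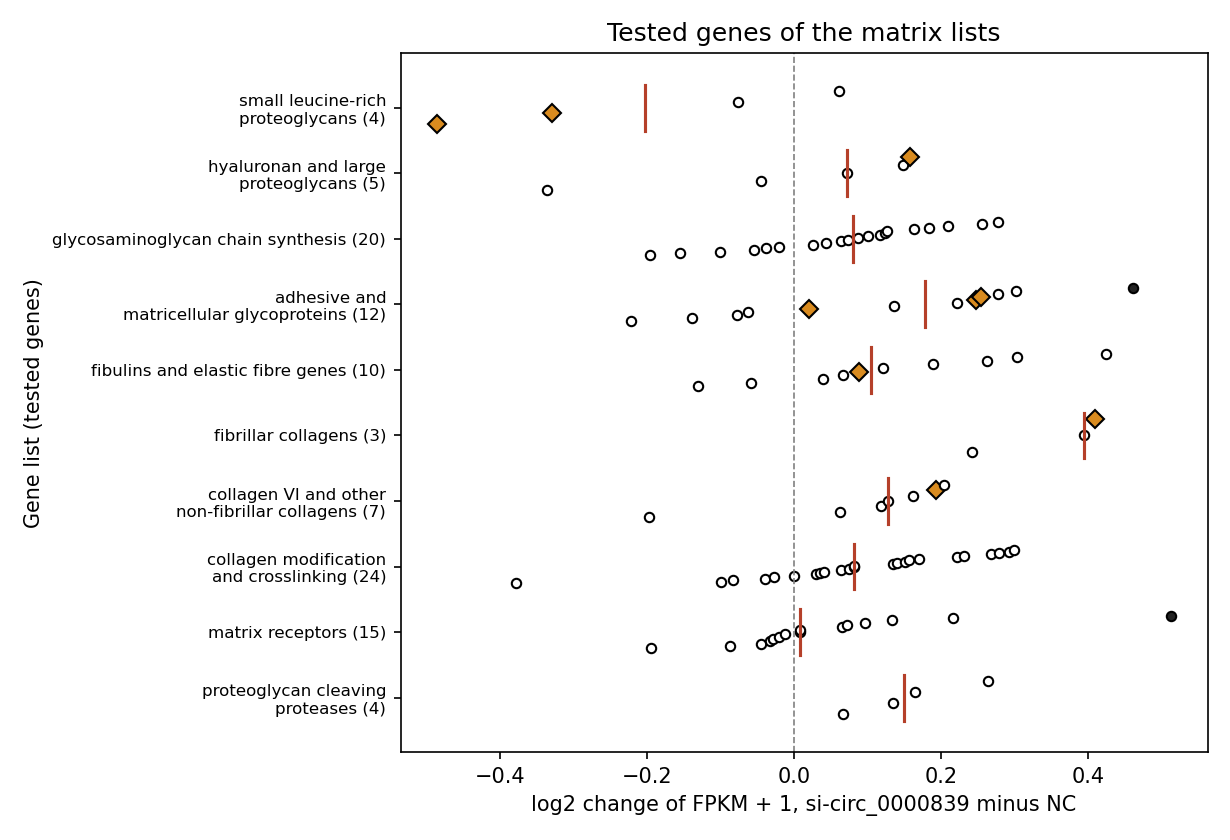
Change of log2(FPKM + 1), si-circ_0000839 minus NC, for every tested gene of the 10 matrix lists, with 1 symbol per gene, diamonds for the members described here, filled circles for genes past an adjusted p of 0.05, and a line at the list median. TGFBI (0.46) and ITGA5 (0.51) are the filled circles. The list of small leucine-rich proteoglycans has its median below 0, at -0.20, over 4 tested genes that include the members LUM and BGN.

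Whether COL5A1, LUM and TNC were called turned on the test, while their directions did not. Over 20 alternative settings COL5A1 kept a log2 change of 0.34 to 0.51, with adjusted p from 0.00213 to 0.370. Over 21 settings LUM stayed between -0.59 and -0.37 (adjusted p 0.00910 to 0.441), TNC between 0.20 and 0.28 (0.00343 to 0.460), and THBS1 between 0.13 and 0.28 (0.0430 to 0.509). The lowest adjusted p for all 4 came with library quality weights, which called 5 members but also 18.4% of all tested genes. Those weights were estimated without reaching the tolerance of the routine.

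**Figure D5:**
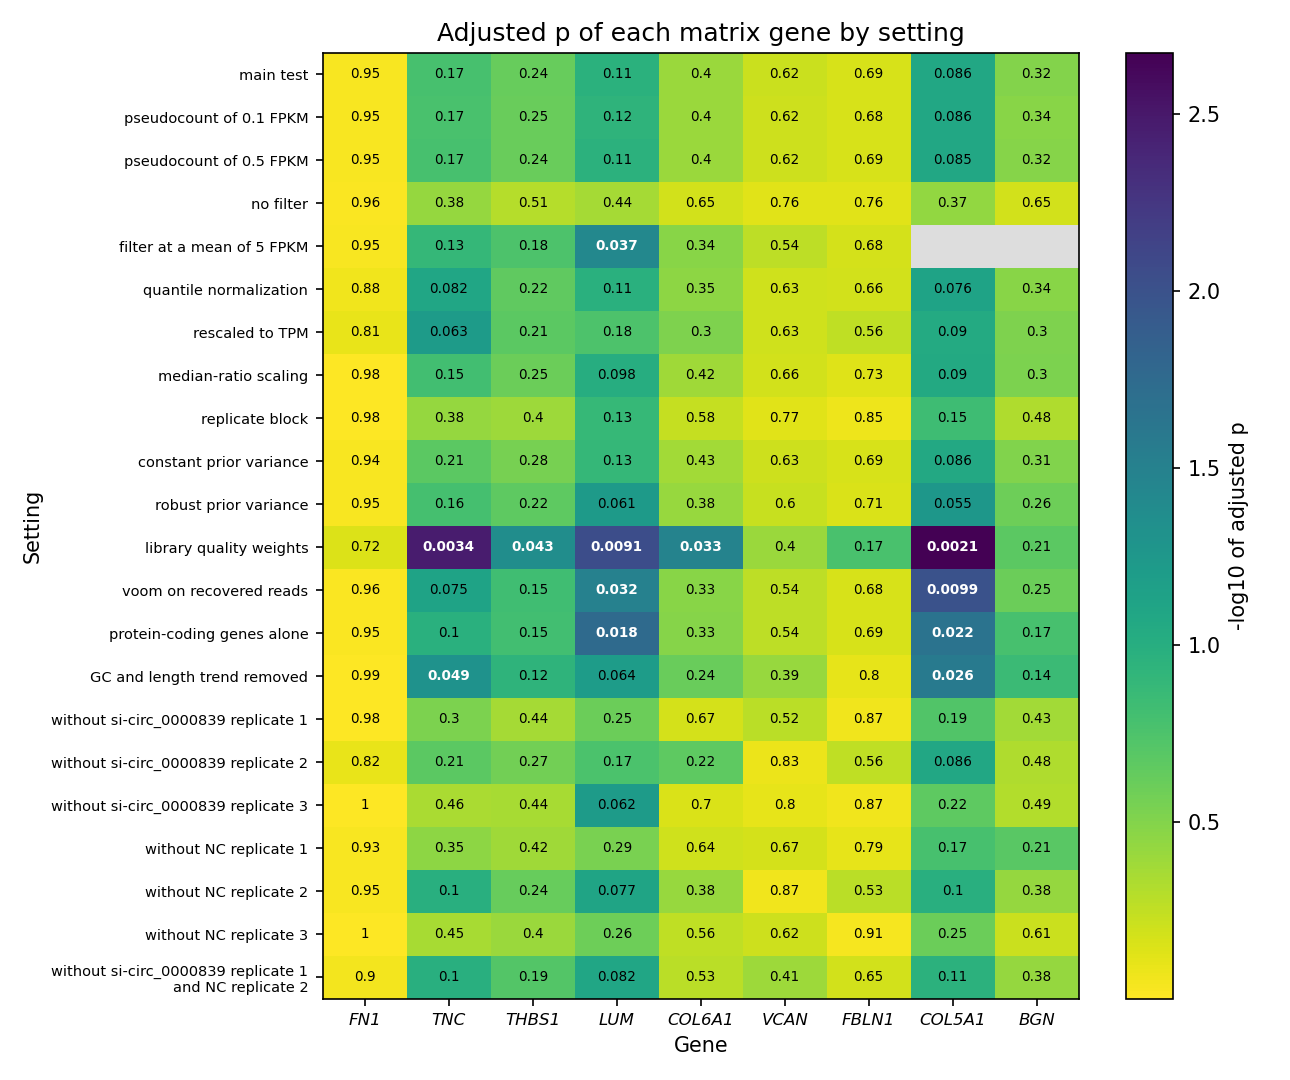
Adjusted p of the 9 tested members (columns) in the main test and 21 alternative settings (rows), coloured by -log10, with values under 0.05 in bold and grey where the gene was filtered out. COL5A1 passes in 4 settings and LUM in 4, TNC in 2, COL6A1 and THBS1 in 1 each, and no member passes in any fit that leaves out libraries.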

How the data were processed

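RNA sequencing of 6 TPC1 libraries (3 si-circ_0000839, 3 NC) was analysed. The authors deposited FPKM per gene and library, with gene lengths and coordinates, per the file headers. The submitters' processing notes name HISAT2 2.0.5 and featureCounts 1.5.0-p3; no source used here gives the strand setting or genome build. All 58735 gene IDs had the coordinates of GENCODE release 29. Multiplying FPKM by gene length and dividing by the step of 1 read gave whole reads (within 0.01) for 100% of values above 0. Libraries of a group differed beyond sampling noise (chi-square per degree of freedom 2.98 to 9.95).

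Tests used limma (version 3.58.1, R 4.3.3) on log2(FPKM + 1), with a trended prior variance and group as the only term, over genes whose 6 libraries averaged 1 FPKM or more, with Benjamini-Hochberg adjustment over all tested genes. Such log2 changes understate those of low genes. Folds are ratios of mean FPKM. Alternatives were other pseudocounts, filters, scalings, prior variances, library weights, voom on recovered reads with TMM scaling, protein-coding genes alone, removal of a spline trend on GC content and length (5 degrees of freedom each), the replicate number as a block, and libraries left out. From each list the called genes, or else the gene with the smallest p, were named, along with chain partners, receptors and the closest patterns. Members and lists were chosen with earlier results of these data known.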

Additional observations from a re-analysis of the deposited data

How the results depend on the processing

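The number of members called was 0 in the main test and stayed 0 in 16 of 21 alternatives, among them every fit that left out libraries (0 to 0). It was 1 with a minimum of 5 FPKM, 2 with voom, 2 with protein-coding genes alone, 2 with the GC and length trend removed, and 5 with library quality weights; the cause was not tested. Over all genes the 41 calls became 4 with no filter, 68 with a minimum of 5 FPKM, 63 after quantile normalization, 66 with a robust prior, 118 with voom, 125 with protein-coding genes alone, 220 with the trend removed and 1969 with quality weights. They were 20 to 38 with 1 library left out and 26 without the pair that stood apart in GC content. FN1 turned sign with the trend removed (-0.0035), with 1 library left out (-0.010 to 0.064) and without that pair (-0.020). ITGAV turned with the trend removed (0.021) and with 1 library left out (-0.19 to 0.053), and ITGB1 with median-ratio scaling (-0.0050) and with 1 library left out (-0.057 to 0.089). With the replicate number as a block 0 members and 35 genes were called. Under that block adjusted p was 0.0776 for TGFBI and 0.0613 for ITGA5, with no filter 0.226 and 0.241, and with a constant prior variance 0.0505 for TGFBI. Deviations of same-numbered libraries from their group means correlated at -0.15, -0.29 and 0.15, and those of differently numbered libraries at -0.30 to 0.35. With 3 libraries per group these values cannot decide whether the numbers pair the libraries. BGN had 36 to 79 reads and DCN at most 1, so their values carry the most counting error among the members.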
